A study of Mus musculus with 4 samples.

Results

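The genes of the major histocompatibility complex (MHC) and of antigen presentation were compared between terminal end buds of control and Ovol2-deleted mouse mammary glands. Members were the genes whose symbol starts with H2-, together with Cd74, B2m, Tap1, Tap2, Tapbp, Psmb8, Psmb9, Psmb10, Ciita, Nlrc5, Cd1d1 and Erap1, each read from the brightest probe set annotated to that gene alone. This gave 41 genes of the 19938 on the array. They comprised 20 class I heavy chain genes with the light chain gene B2m, the class I-like gene Cd1d1, 9 class II genes, 7 genes of class I peptide processing, the regulators Ciita and Nlrc5, and H2-Ke6, which carries an H2- symbol by its position and encodes a hydroxysteroid dehydrogenase. Terminal end buds are the growing tips of the pubertal mammary ducts, and Ovol2 is a zinc finger repressor of epithelial-mesenchymal transition. Both groups were female mice of a strain labelled C57/BL6, at 4.5 weeks in the sample labels and at 24 to 25 days in the series text. The 2 control arrays each held a pool of 2 mice with 1 floxed and 1 wild-type allele (Ovol2flox/+), without Cre in the sample characteristics and with or without K14-Cre in the protocol. The 2 knockout arrays each held a pool of 3 mice with 1 floxed and 1 null allele and K14-Cre (Ovol2flox/-;K14-Cre), in which Cre is driven by the keratin 14 promoter of basal epithelium. The number of mice per pool differed with the genotype and cannot be told apart from it.

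Class I molecules pair a heavy chain with B2m, sit on nearly all nucleated cells and show peptides from the cell's own cytosol to CD8 T cells. The peptides are cut by the proteasome and its interferon-inducible subunits, carried into the endoplasmic reticulum by the TAP transporter, trimmed by Erap1 and loaded with the help of tapasin. Class II molecules are made mainly by dendritic cells, macrophages and B cells, present peptides taken up from outside to CD4 T cells, and are held by the invariant chain Cd74 until they reach endosomes. In the mammary gland, macrophages and dendritic-like cells lie around and within the ducts and end buds, and some epithelial cells can be induced to make class II.

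Values are log2(signal + 16) of the deposited linear signals after quantile normalization, and differences are knockout minus control with the SE of a limma fit over 11963 genes, n = 2 arrays per group. The median SE over those genes was 0.084. Genes with a mean under 7.97 over the 4 arrays were not tested, which left 23 of the 41 members. Median array signals were 252 to 264 in the controls and 263 to 272 in the knockouts, and all 9 measured end bud epithelium markers had levels of 10.1 or more in every array. The targeted gene Ovol2 had levels of 8.05 and 8.31 in the controls against 7.85 and 7.73 in the knockouts, a difference of -0.39 ± 0.16 (limma, adjusted p = 0.17) that missed the threshold.

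Of the 23 tested members, 3 rose in the knockout, 0 fell and 20 did not pass the threshold of an adjusted p of 0.05. The 3 were H2-Ab1 of class II, Tap2 of class I processing, and H2-Ke6. Over all tested genes, 10.7% passed, 6.29% as higher and 4.46% as lower. Both knockout arrays lay above both control arrays for 7 of all 41 members and below them for 11, against 20.1% and 29.5% of all genes. Among the 23 tested members these counts were 7 and 4, against 26.4% and 29.9% of tested genes. The median difference was -0.013 over all 41 members and -0.049 over all 19938 genes. Whether class II differed from class I in its response was not tested.

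The class II genes lay on both sides of 0. The chain genes H2-Aa, H2-Ab1 and H2-Eb1 and the invariant chain gene Cd74 were higher in both knockout arrays. H2-Oa and H2-Ob, whose products form the DO molecule that restrains peptide loading and is made largely in B cells, were lower in both. Over the 9 class II genes, both knockout arrays lay above both controls for 4 genes and below them for 4, and 1 gene overlapped. Over all genes these shares were 20.1% above and 29.5% below. The median difference was -0.055 over all 9 genes.

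H2-Ab1, the beta chain of the I-A molecule, had linear signals of 712 and 639 in the controls against 857 and 1083 in the knockouts. As log2 values after normalization these were 9.56 and 9.35 against 9.72 and 10.13. The second knockout array stood highest, and the first lay closer to control replicate 1 than to it. The difference was 0.47 ± 0.13, a 1.38-fold rise (95% interval 0.18 to 0.75, limma adjusted p = 0.0445). The call was lost with no filter (adjusted p = 0.0602), with the filter at the 60th percentile (adjusted p = 0.0582), with a robust prior (adjusted p = 0.112) and without the trend in the prior (adjusted p = 0.156). Leaving out knockout replicate 2 gave a difference of 0.27 (adjusted p = 0.0869), leaving out control replicate 1 gave 0.57 (adjusted p = 0.058) and leaving out control replicate 2 gave 0.37 (adjusted p = 0.147), none past the threshold. Leaving out knockout replicate 1 gave 0.67, in a fit where the lone knockout array is assumed to vary like the controls.

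The same order of arrays held for H2-Aa, H2-Eb1 and Cd74, which did not pass the threshold. H2-Aa, the alpha chain of I-A, had levels of 9.92 and 9.67 in the controls against 9.95 and 10.33 in the knockouts. Its first knockout array lay just above the higher control, and the difference was 0.35 ± 0.12 (limma, adjusted p = 0.105). H2-Eb1, the beta chain of the I-E molecule, went from 9.48 and 9.25 to 9.55 and 9.94, a difference of 0.38 ± 0.13 (limma, adjusted p = 0.0918). Cd74, the invariant chain, went from 10.27 and 10.14 to 10.38 and 10.82, a difference of 0.39 ± 0.12 (limma, adjusted p = 0.0713). In all 4 genes the arrays ran from knockout replicate 2 through knockout replicate 1 and control replicate 1 to control replicate 2, an order looked for after the values were seen and shared by 3.72% of tested genes. Knockout replicate 2 set most of these sizes. When it was left out, the differences were 0.16 for H2-Aa, 0.19 for H2-Eb1 and 0.17 for Cd74, and without knockout replicate 1 they were 0.54, 0.58 and 0.61, all 3 then past the threshold. Without quantile normalization, the 3 genes passed too (limma, adjusted p = 0.00584 for H2-Aa, 0.00415 for H2-Eb1 and 0.000419 for Cd74). Their differences there were close to those of the main fit, at 0.38, 0.42 and 0.41. The SEs were smaller, at 0.11, 0.12 and 0.10, so the lower p-values do not rest on larger differences alone. Variances were pooled more strongly over genes there than in the main fit. The p-values therefore do not measure the spread of these genes between the knockout arrays, an SD of 0.27 to 0.31 after quantile normalization.

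H2-Ob, the beta chain of DO, had levels of 8.33 and 8.20 in the controls against 7.66 and 7.44 in the knockouts, with linear signals of 305 and 266 against 181 and 164. Both knockout arrays lay below both controls. Its mean over the 4 arrays was under the filter, so it was not among the tested genes. With no filter, the difference of -0.72 ± 0.13 passed the threshold as lower (limma, adjusted p = 0.011), a 1.64-fold lower level. It also entered the test when knockout replicate 1 or knockout replicate 2 was left out, with differences of -0.82 and -0.61. Both its knockout levels lay under the filter level of the main fit. It entered there through its control levels, which then made up more of the mean, so its entry is not further evidence of a fall. H2-Oa, the alpha chain of DO, read 7.77 and 7.72 in the controls against 7.47 and 7.53 in the knockouts, a difference of -0.25 that did not pass with no filter (limma, adjusted p = 0.322).

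H2-DMa, a chain of the DM molecule that exchanges the invariant chain fragment for peptide, read 8.42 and 8.52 in the controls against 8.38 and 8.37 in the knockouts. The difference of -0.10 ± 0.12 did not pass (limma, adjusted p = 0.673). H2-Eb2, a dim beta chain gene next to H2-Eb1, read 7.41 and 7.36 against 6.97 and 7.15, under the filter in all 4 arrays. H2-Ea encodes the alpha chain of I-E and is not expressed in mice of the b haplotype such as C57BL/6, which carry a deletion at its promoter. The H2-Eb1 values are therefore those of a transcript whose partner chain in I-E is not expressed in such mice. H2-Ea levels were 7.06, 6.93, 6.95 and 6.93, with overlapping groups.

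**Figure D1:**
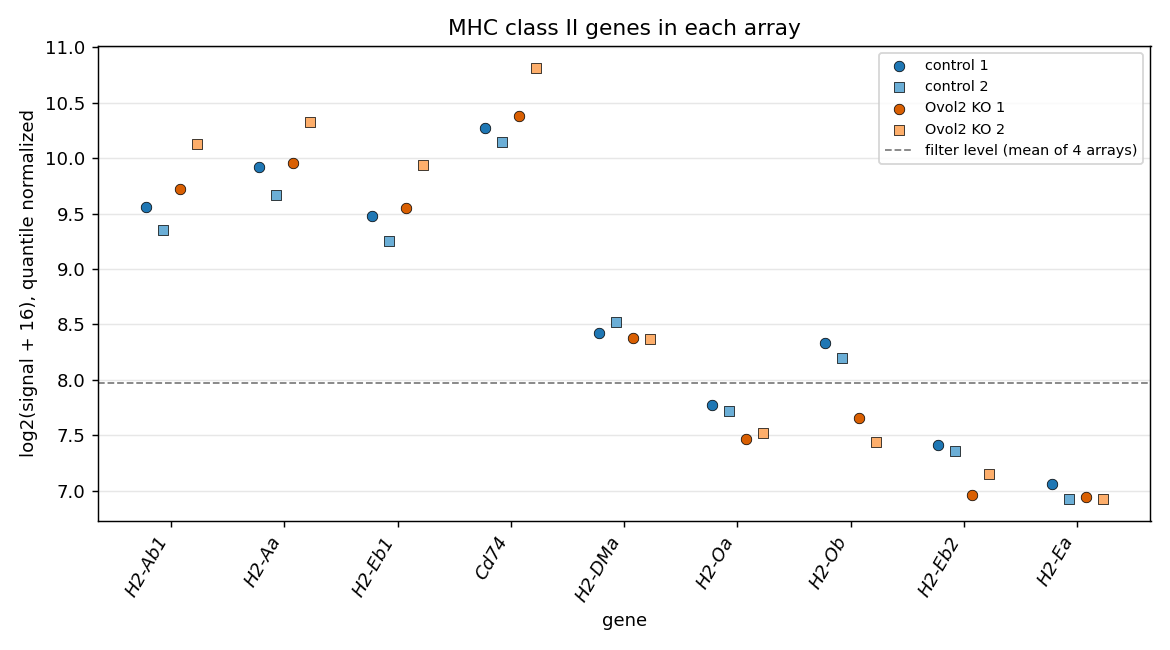
Level of each of the 9 class II genes, as log2(signal + 16) on the vertical axis, with 1 point per array (blue, controls; orange, knockouts) and the filter level of 7.97 as a dashed line. H2-Ab1, H2-Aa, H2-Eb1 and Cd74 are highest in knockout replicate 2, whereas H2-Ob and H2-Oa are lower in both knockout arrays than in both controls.

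Promoters of 4 class II genes, which differed in both directions, are shown because class II and class I genes share promoter boxes read by a common set of factors. RFX and CREB family proteins bind the X boxes, NF-Y binds the Y box, and Ciita for class II or Nlrc5 for class I docks on them. RefSeq promoter windows (GRCm38.p6) were found for 29 of the 41 members, each with 250 bases before the gene's start and 50 after it. No window was found for H2-Ab1, the class II gene that passed, nor for Cd74 or Tap2. None of the 4 genes shown passed in the main test. The 4 windows below are printed 5′ to 3′ on the gene's strand. They are chr17:34287774-34288073 (minus strand) for H2-Aa, chr17:34305617-34305916 (plus strand) for H2-Eb1, chr17:34092129-34092428 (plus strand) for H2-Oa and chr17:34238655-34238954 (plus strand) for H2-Ob. Capitals mark CCAAT (the core of the Y box) and TGACG (the core of the X2 box) on either strand, so CCAAT on the opposite strand appears as ATTGG.
H2-Aa: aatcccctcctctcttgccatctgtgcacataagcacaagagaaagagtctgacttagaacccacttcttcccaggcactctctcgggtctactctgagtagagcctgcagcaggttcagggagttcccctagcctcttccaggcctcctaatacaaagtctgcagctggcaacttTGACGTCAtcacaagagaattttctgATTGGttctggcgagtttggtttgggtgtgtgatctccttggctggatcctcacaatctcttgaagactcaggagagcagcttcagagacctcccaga
H2-Eb1: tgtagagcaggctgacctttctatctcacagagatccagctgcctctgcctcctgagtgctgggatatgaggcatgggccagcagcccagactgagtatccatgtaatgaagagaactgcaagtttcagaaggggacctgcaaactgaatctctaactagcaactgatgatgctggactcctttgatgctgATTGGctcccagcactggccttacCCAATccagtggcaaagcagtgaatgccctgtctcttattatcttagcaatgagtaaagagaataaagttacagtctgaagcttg
H2-Oa: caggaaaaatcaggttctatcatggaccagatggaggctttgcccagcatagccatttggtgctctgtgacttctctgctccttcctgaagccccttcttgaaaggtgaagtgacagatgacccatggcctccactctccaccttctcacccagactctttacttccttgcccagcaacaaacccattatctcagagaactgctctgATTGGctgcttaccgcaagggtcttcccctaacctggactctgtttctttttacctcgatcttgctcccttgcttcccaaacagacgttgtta
H2-Ob: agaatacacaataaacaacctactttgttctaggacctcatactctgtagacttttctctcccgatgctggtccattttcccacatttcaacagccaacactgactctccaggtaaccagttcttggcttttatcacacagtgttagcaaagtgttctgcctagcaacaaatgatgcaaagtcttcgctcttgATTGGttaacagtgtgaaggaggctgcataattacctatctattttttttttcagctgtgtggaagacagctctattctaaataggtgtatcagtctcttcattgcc
All 4 windows hold CCAAT on the opposite strand, starting at base 203 of the window in H2-Aa, 192 in H2-Eb1, 208 in H2-Oa and 194 in H2-Ob, where the gene's start follows base 250. This position is not shared by the class II windows left out here. Their matches start at base 53 in H2-DMa and 151 in H2-Eb2. H2-Eb1 holds a second match on its own strand at base 216. H2-Aa alone of the 4 holds the exact letters TGACG, on both strands at bases 177 and 180, where the matches overlap. An X2 box with other letters would not be found by this search. CCAAT was present for all 6 class II genes with a window, for 14 of 16 class I genes and for 3 of 6 processing genes, against 37.4% of all 32851 windows. TGACG was present for 1 of the 6 class II and 8 of the 16 class I genes, against 20.8% of windows. GAANNGAAA, the letters searched for an interferon response element on both strands, was found for 0 class II and 4 class I genes, against 7.52% of windows. These matches are letters in a window and not measured binding, and a gene with several windows was counted once if any held the motif.

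No class I transcript passed the test. Of the 21 class I genes, 9 could be tested and 0 passed the threshold in either direction, with differences from -0.10 to 0.09 and SEs from 0.047 to 0.13. At an unadjusted p under 0.05 the count was also 0 of 9, against 25.5% of all tested genes. B2m, the light chain of every class I molecule, had the brightest signal, with levels of 13.29 and 13.26 in the controls against 13.14 and 13.22 in the knockouts. Both knockout arrays lay below both controls, and the difference of -0.10 ± 0.05 (95% interval -0.20 to 0.01) did not pass (limma, adjusted p = 0.237).

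Among the heavy chains, H2-Q4, a non-classical gene of the Q region, read 10.92 and 11.08 in the controls against 11.04 and 11.14 in the knockouts, with overlapping groups and a difference of 0.09 ± 0.07 (95% interval -0.07 to 0.24). H2-Q2 read 9.75 and 9.86 against 9.69 and 9.73, a difference of -0.10 ± 0.08 with both knockouts below both controls. H2-M3, which presents N-formylated peptides of bacteria, read 8.50 and 8.54 against 8.52 and 8.50. The groups also overlapped for H2-Q5, H2-K2, H2-Bl, H2-T10 and H2-Q10, whose differences lay between -0.08 and 0.05. The other 12 heavy chain genes, mostly of the M region, had means under the filter. They include the H2-M10 genes, known from sensory neurons of the vomeronasal organ, and differed by -0.27 to 0.07. H2-M9 had the widest spread within a group, at 7.12 and 8.21 in the controls. Cd1d1, which presents lipids to NKT cells, had linear signals of 207 and 230 in the controls against 280 and 224 in the knockouts, with overlapping groups and a mean under the filter. Heavy chain genes are close in sequence, so a probe set may also read a relative. The classical genes H2-K1 and H2-D1 have no probe set of their own on this array and are not members.

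**Figure D2:**
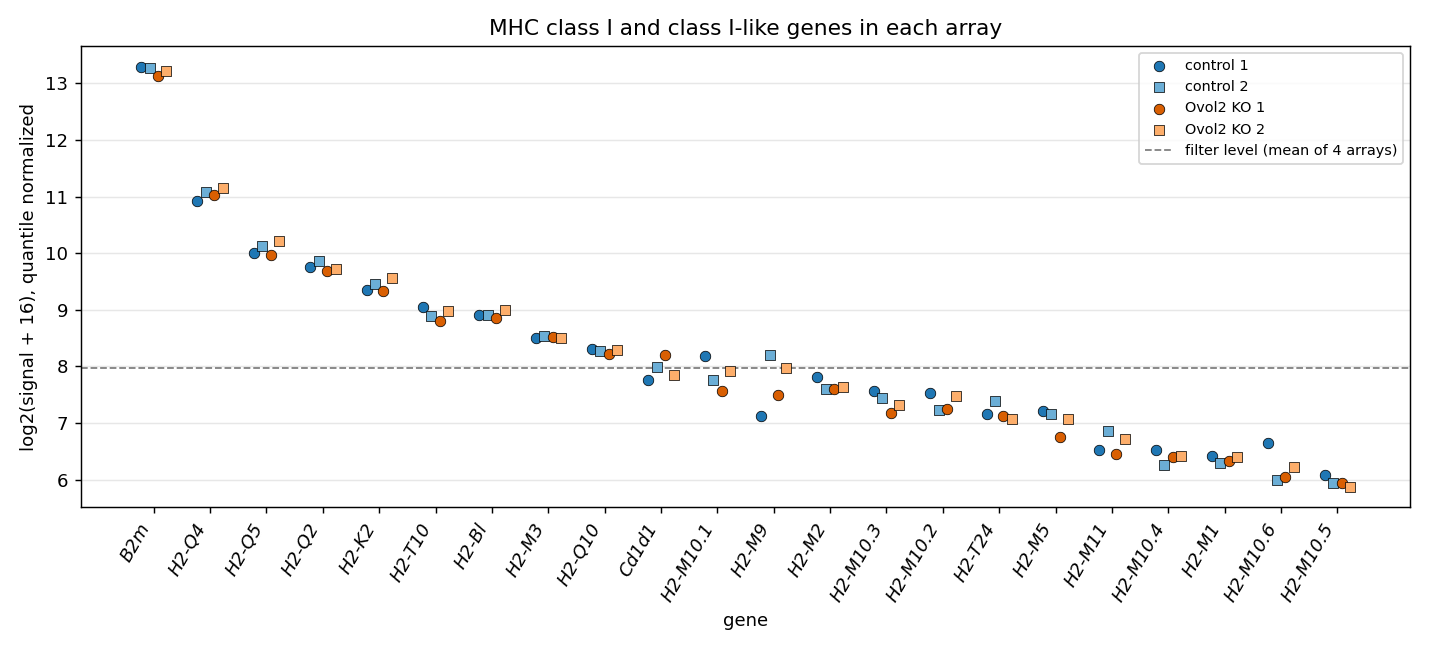
Level of the 21 class I genes and Cd1d1, as log2(signal + 16) on the vertical axis, with 1 point per array and genes ordered by their mean. The 4 arrays lie close together for the 9 genes that were tested, and the scatter within a group widens under the filter level of 7.97 (dashed line), as for H2-M9.

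Of the genes that cut, carry and load class I peptides, 1 of 7 rose and 6 did not pass. Tap2, a chain of the TAP peptide transporter, read 9.75 and 9.88 in the controls against 10.16 and 10.17 in the knockouts, with linear signals of 820 and 938 against 1169 and 1121. The knockout arrays were nearly equal and both lay above both controls. The difference was 0.35 ± 0.07, a 1.28-fold rise (95% interval 0.19 to 0.52, limma adjusted p = 0.0161). The call was lost without control replicate 1 (0.29, adjusted p = 0.14), with arrays centred on their medians (0.33, adjusted p = 0.203) and without the trend in the prior (adjusted p = 0.076). Its partner Tap1 read 9.86 and 9.82 against 9.81 and 9.76, slightly lower in both knockouts, a difference of -0.05 ± 0.07 (limma, adjusted p = 0.7).

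The immunoproteasome subunit genes did not pass. Psmb9 read 10.15 and 10.13 in the controls against 10.25 and 10.27 in the knockouts, a difference of 0.12 ± 0.06 with both knockouts above both controls (limma, adjusted p = 0.272). Psmb8 differed by 0.01 ± 0.07 and Psmb10 by 0.09 ± 0.09, with overlapping groups. Tapbp, encoding tapasin, differed by 0.00 ± 0.05 (95% interval -0.12 to 0.12), and the aminopeptidase gene Erap1 by 0.02 ± 0.06 (95% interval -0.12 to 0.17). The promoter windows of Tap1 and Psmb9 lie on opposite strands and share 275 bases.

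Neither of the regulators stood apart. Ciita, the master regulator of class II transcription, had levels of 7.62 and 7.64 in the controls against 7.51 and 7.66 in the knockouts, overlapping and under the filter. Nlrc5, its class I counterpart, was read by 19 probe sets, and the brightest gave 10.17 and 9.90 in the controls against 9.75 and 10.17 in the knockouts. The difference of -0.07 ± 0.13 did not pass (limma, adjusted p = 0.764), but without knockout replicate 2 it was -0.28 and passed as lower (adjusted p = 0.0285). Over the 19 probe sets the differences ran from -0.28 to 0.17, with 8 higher and 11 lower and a median of -0.009.

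H2-Ke6 had levels of 10.10 and 10.10 in the controls against 10.37 and 10.40 in the knockouts, well separated. It rose by 0.29 ± 0.06, or 1.22-fold (limma, adjusted p = 0.0205). The call was lost when control replicate 1 (adjusted p = 0.119) or control replicate 2 (adjusted p = 0.0659) was left out, with median centring (adjusted p = 0.37) and with no trend in the prior (adjusted p = 0.0834). By RefSeq, 34 of the 41 members lie on chromosome 17, where the protein-coding genes Psmb9, Tap1, Psmb8, Tap2, H2-Ob, H2-Ab1, H2-Aa, H2-Eb1 and H2-Eb2 follow one another. Neighbours in this run differed in direction. Tap2 and H2-Ab1 rose, H2-Ob between them read lower in both knockout arrays, and Tap1 and Psmb8 did not pass.

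**Figure D3:**
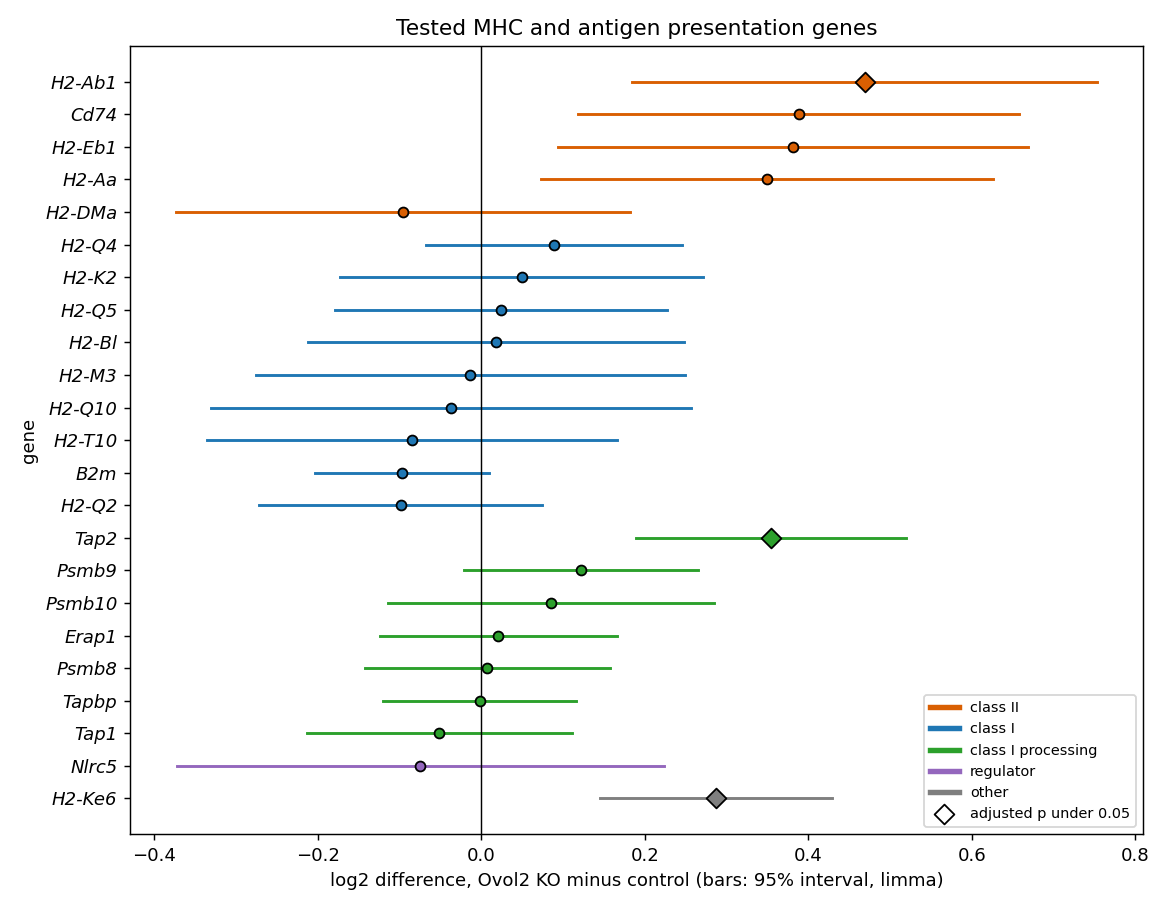
Log2 difference (knockout minus control) of the 23 tested members on the horizontal axis, with 95% intervals from limma, coloured by role; diamonds mark an adjusted p under 0.05. The intervals of H2-Ab1, Cd74, H2-Eb1, H2-Aa, Tap2 and H2-Ke6 lie above 0, and those of all 9 class I genes include 0.

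The counts for genes that act with the members are read against the 10.7% of all tested genes that passed and the 25.5% with an unadjusted p under 0.05, and none is called particular to its list. Of 11 tested genes of class I loading and peptide supply, such as the chaperone genes Calr and Canx, 0 passed by limma and all 11 had negative differences, from -0.14 to -0.014 with a median of -0.076. The median over all tested genes was -0.022. At an unadjusted p under 0.05 the count was 2 of the 11. Of 10 tested genes of the endosomal class II pathway, 1 rose and 0 fell, with a median of 0.049. The one that rose was Ctsl, a lysosomal cysteine protease gene, by 0.34 ± 0.06 (limma, adjusted p = 0.00762), a call lost with median centring (adjusted p = 0.0826) and without the trend (adjusted p = 0.0819). Ifi30, the thiol reductase gene of antigen processing, differed by -0.23 ± 0.07 and did not pass (limma, adjusted p = 0.0672). It passed as lower without quantile normalization (adjusted p = 0.0224), with a robust prior (adjusted p = 0.0444) and without knockout replicate 1 (-0.34). Of the 10 RFX, NF-Y and CREB factors and coactivators 0 passed by limma, with 2 at an unadjusted p under 0.05, and the differences furthest from 0 were those of Kat2b (0.21 ± 0.08) and Nfyc (-0.18 ± 0.05).

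Of 19 tested interferon and NF-kB input genes, 1 rose, 2 fell and 16 did not pass, with a median of 0.085. The kinase gene Jak2 rose by 0.49 ± 0.07 (limma, adjusted p = 0.00227). The interferon-induced genes Usp18 and Ifit1 fell by 0.81 ± 0.10 and 0.81 ± 0.16 on the log2 scale. Jak2 and Ifit1 did not pass without the trend (adjusted p = 0.0611 and 0.0785), nor Ifit1 without control replicate 1 (adjusted p = 0.0793). Irf1, a factor that activates class I and Ciita promoters, read 10.45 and 10.44 in the controls against 10.58 and 10.77 in the knockouts, a difference of 0.23 ± 0.07 that did not pass (limma, adjusted p = 0.0769). It passed with a robust prior (adjusted p = 0.0484) and without knockout replicate 1 (0.32). Of 5 tested co-stimulation and adhesion genes 0 passed by limma, with 1 at an unadjusted p under 0.05, and the adhesion gene Icam1 had the highest value at 0.41 ± 0.12 (limma, adjusted p = 0.0694). Icam1 passed without quantile normalization (limma, adjusted p = 0.000506), where the difference was 0.43 and the SE fell to 0.10. Variances were pooled more strongly over genes in that fit. The difference was 0.52 without control replicate 2 and 0.61 without knockout replicate 1.

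Markers of the cells that make class II did not move together. In bulk tissue, fewer cells of a type and less RNA per cell cannot be told apart. All 11 measured B cell markers were lower in both knockout arrays than in both controls, against 29.5% of all genes, with a median of -0.54. The summed linear signal of these markers was 2317 to 3093 in the controls and 1378 to 1392 in the knockouts. Of these, 3 could be tested and 1 fell, the B cell receptor gene Cd79b, with a difference of -1.91 ± 0.22. Its levels were 9.66 and 9.02 in the controls against 7.68 and 7.19 in the knockouts. Both knockout levels lay under the filter level, so Cd79b was tested only through its control levels. Cd22 and Ighm differed by -0.45 ± 0.14 and -0.32 ± 0.16 and did not pass. Of 14 macrophage and monocyte markers, 9 were tested, of which Cd14 rose, Lyz2 fell and 7 did not pass. Their median was -0.012 over the 14, with a summed signal of 6243 to 6890 in the controls, 7581 in knockout replicate 1 and 5558 in knockout replicate 2. Cd14 did not pass without control replicate 1, without the trend or with median centring, and Lyz2 did not pass without either control array, with the filter at the 60th percentile, without the trend or with a robust prior.

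Of 14 dendritic cell markers, 4 were tested and 1 fell, the homing receptor gene Ccr7, by 0.84 ± 0.12, which T and B cells also make. Of the 14 markers, 11 had negative differences and 3 positive ones, with a median of -0.12. Both knockout arrays lay below both controls for 6 and above them for 2, against 29.5% and 20.1% of all genes. The summed signal of the 14 was 3319 to 3559 in the controls and 2986 to 3452 in the knockouts. Of 6 markers of all leukocytes, 4 were tested and 1 fell, Cd53, by 0.67 ± 0.15, a call lost when control replicate 1 was left out (adjusted p = 0.134) and without the trend (adjusted p = 0.0708). Ptprc, the CD45 gene, differed by -0.37 ± 0.15 and did not pass. The 10 T and NK cell markers had a summed signal of 1453 to 1674 in the controls and 1441 to 1568 in the knockouts, and neither of the 2 tested passed. Of 5 lymph node stroma markers, 2 of the 3 tested fell, Cxcl13 and Glycam1, and Ccl19 did not pass. Glycam1 differed widely between the knockout arrays, with linear signals of 777 and 28. Whether these 2 calls hold under the alternatives was not assessed, and which cells made the transcripts was not tested. A marker of this list is also in the B cell list, and 1 had overlapping groups. Their summed signal was 9388 to 9562 in the controls, 3104 in knockout replicate 1 and 836 in knockout replicate 2. Cxcl13 and Glycam1 made up most of the control sum (5346 and 3418 in control replicate 1). All 10 fibroblast markers rose (median 1.22), with summed signals of 11266 to 12026 in the controls, 26451 in knockout replicate 1 and 31560 in knockout replicate 2. Of 8 endothelial markers 5 rose (median 0.63), with summed signals of 2955 to 3735 in the controls, 5085 in knockout replicate 1 and 6309 in knockout replicate 2. Knockout replicate 2, where H2-Ab1, H2-Aa, H2-Eb1 and Cd74 were highest, had the highest fibroblast and endothelial sums. Its macrophage, B cell, leukocyte and lymph node stroma sums were the lowest, the B cell sum only just (1378 against 1392 in knockout replicate 1). By contrast, its dendritic cell sum (3452) and T and NK cell sum (1568) lay within the range of the controls. Both were above those of knockout replicate 1 (2986 and 1441). The marker Fscn1 gave 823 of the dendritic cell sum in knockout replicate 2, against 627 and 671 in the controls. Of 9 end bud epithelium markers 1 fell, the basal cell factor gene Trp63, with a difference of -0.36 ± 0.06 (limma, adjusted p = 0.00869), and their summed signal was 52004 to 52917 in the controls and 52478 to 52675 in the knockouts. Krt14, the gene whose promoter drives Cre, read 11.14 and 11.31 in the controls against 11.36 and 11.95 in the knockouts, also highest in knockout replicate 2, a difference of 0.43 ± 0.15 that did not pass (limma, adjusted p = 0.0995). The Trp63 call was lost with control replicate 1 left out (adjusted p = 0.0804), with median centring (adjusted p = 0.0714) and without the trend (adjusted p = 0.0678). Krt14 passed as higher without quantile normalization (limma, adjusted p = 1.2e-07) and with median centring (limma, adjusted p = 0.00651). Its differences there were 0.44 and 0.39, but the SEs were 0.074 and 0.11 against 0.15 in the main fit. Those p-values rest on variances pooled strongly over genes. They do not measure the spread of Krt14 itself, an SD of 0.12 in the controls and 0.41 in the knockouts after quantile normalization. The Krt14 difference was 0.72 with knockout replicate 1 left out and 0.14 with knockout replicate 2 left out. No marker of these lists had a signal of 0. The part of any of these cells in the MHC values was not tested.

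**Figure D4:**
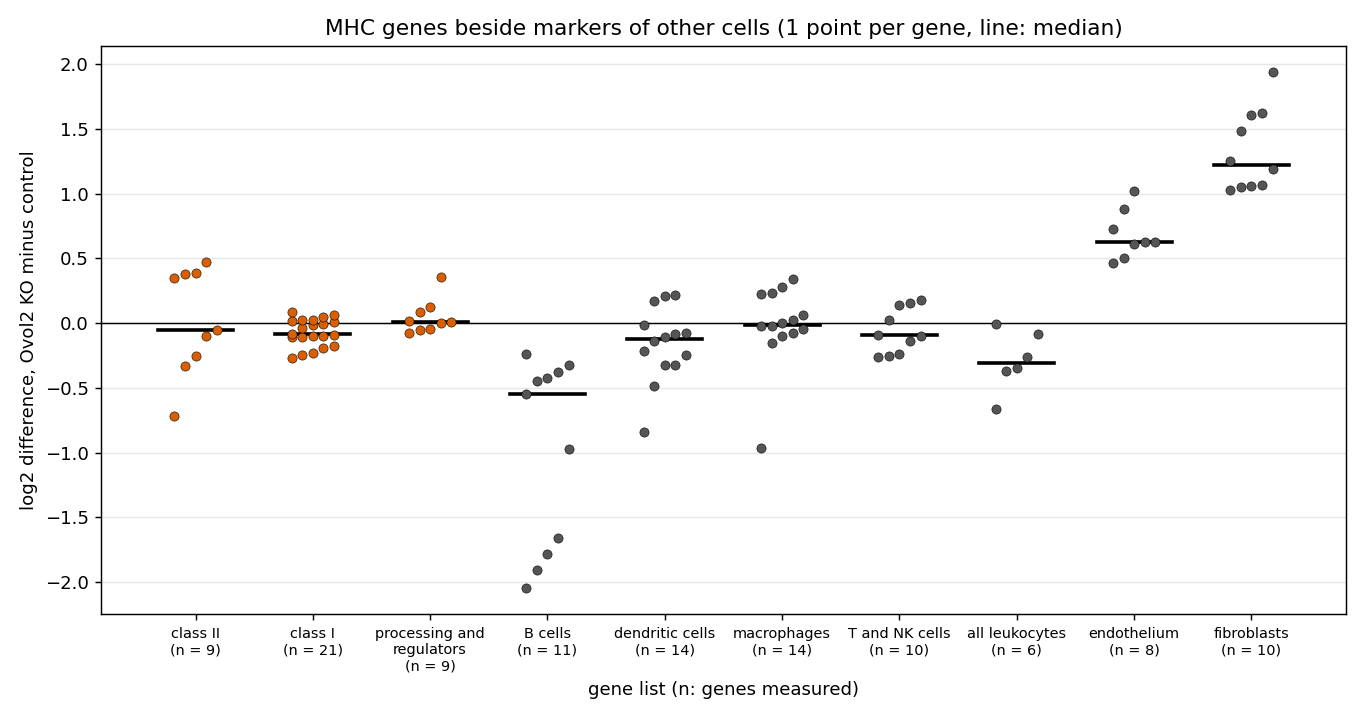
Log2 difference (knockout minus control) on the vertical axis for each measured gene of the class II, class I and processing lists (orange) and of marker lists of other cells (grey), with the median as a line. Class II genes lie on both sides of 0, class I genes close to it, all 11 B cell markers below it and all fibroblast and endothelial markers above it.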

How the data were processed

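Whole-transcript Affymetrix arrays of pooled end bud RNA were used, 2 per group, labelled as biological replicates. The deposited table holds linear signal intensity values of each probe set, for which the submitters' processing notes name PLIER (2.0) and Affymetrix Expression Console (1.1.1). How background and arrays were adjusted, and with which genome build, is not given in the sources used here. Of 35556 probe sets, 21789 had 1 gene symbol in the platform annotation, 1621 several and 12146 none listed. Values were taken as log2(signal + 16), because a log scale needs an offset, and quantile normalized in limma version 3.58.1 (R version 4.3.3). Genes under the 40th percentile of mean level (7.97, near a signal of 235) were not tested, and the files gave no detection calls. The groups were compared by lmFit and a trended eBayes, as a two-sided test with Benjamini-Hochberg adjustment over 11963 genes at 0.05. The main fit had 2 residual and 7.57 prior degrees of freedom, and the number of arrays limits its precision. Without quantile normalization and with median centring, variances were pooled more strongly over genes. Low p-values in those fits do not measure a gene's own spread. Alternatives changed the scaling, offset, filter, prior, probe set rule, replicate block and arrays included. The fit was tested on simulated data with known changes. All members may be named, and up to 4 tested genes of each other list with the largest differences. The members and lists were chosen with earlier results of these data known. Same-numbered arrays are not paired by the labels.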

Additional observations from a re-analysis of the deposited data

How the results depend on the processing

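No class I gene passed under any of the alternatives run. The count of class II genes past the threshold, 1 in the main analysis, was 4 in the values as deposited, all as higher. In that setting variances were pooled more strongly over genes than in the main fit. It was 0 with the filter at the 60th percentile, with a robust prior or without the trend. This count also changed when 1 array was left out. Where that was a knockout array, H2-Ob entered through its control levels, as lower beside genes that were higher. The count of processing and regulator genes, 1 in the main analysis, was 0 with median centring and without the trend, and ranged from 0 to 2 with 1 array left out. Over all genes, 1285 passed, against 754 with median centring, 189 without the trend, and 455 to 2344 with 1 array left out. The lone array of a group is then assumed to vary like the other group. The class II median of -0.055 was 0.38 over the 5 tested genes, since the dim genes lie on the other side of 0, and -0.065 to 0.013 with 1 array left out. Offsets of 1 and 64 and the mean of all probe sets of a gene left the class I, class II and processing counts at 0, 1 and 1. With no filter the class II count was also 1, but the gene was H2-Ob as lower, and H2-Ab1 was lost. With the replicate block (the shared replicate numbers as a term), 4 class II genes and 2244 genes in all passed. The deviations of same-numbered arrays correlated with r = -0.195 across genes. With 2 arrays per group this is a single contrast, which cannot show whether arrays were handled in pairs. Crossed, a choice made after seeing the data, the replicate block gave 4 class II, 1 processing and 1186 genes in all.

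Among tested members, signs turned for some that did not pass in the main analysis and for none that did. In the values as deposited the difference was 0.037 for H2-M3, 0.0082 for H2-Q10 and 0.0070 for Tapbp. With median centring it was -0.0086 for Erap1, -0.00058 for H2-Q5 and -0.015 for Psmb8. With 1 array left out it ranged from -0.019 to 0.060 for Erap1, -0.052 to 0.088 for H2-Bl, -0.064 to 0.16 for H2-K2, -0.035 to 0.0080 for H2-M3, -0.10 to 0.15 for H2-Q5, -0.18 to 0.0062 for H2-T10, -0.28 to 0.13 for Nlrc5, -0.015 to 0.19 for Psmb10, -0.025 to 0.040 for Psmb8 and -0.040 to 0.036 for Tapbp. Of the untested members, H2-M1 (-0.036) and H2-M10.4 (-0.024) turned with median centring, and 10 turned with 1 array left out, among them H2-M9 (-0.48 to 0.61), Cd1d1 (-0.027 to 0.32), Ciita (-0.12 to 0.030) and H2-Ea (-0.12 to 0.013). The causes were not tested. The files gave no detection calls, so whether dim members such as the H2-M10 genes stood above background was not assessed.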

Other observations

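On the array, 8 probe sets carried several gene symbols of which at least 1 began with H2-, and they entered no comparison. Their levels ran from 6.68 to 12.51 over the 4 arrays, and their differences (knockout minus control) from -0.12 to 0.09 with a median of 0.015. Both knockout arrays lay above both controls for 1 of them and below for 2, and 5 overlapped.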
